A study of Mus musculus with 7 samples.

Results

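Primary (azurophil) granules are the first granules that a granulocyte precursor makes, and their proteins are transcribed at the promyelocyte stage, before the secondary granules form. Mpo encodes myeloperoxidase, which makes hypochlorous acid. Elane, Prtn3 and Ctsg encode the serine proteases neutrophil elastase, proteinase 3 and cathepsin G, which are stored in active form with myeloperoxidase. Ms4a3 encodes a membrane protein of granulocyte-monocyte progenitors, Slpi a secreted inhibitor of elastase and cathepsin G, Cst7 cystatin F, an inhibitor of cysteine cathepsins, and Hp haptoglobin, which binds free haemoglobin. These 8 genes were chosen by symbol as a list of azurophil granule and early granulocyte genes, and all 8 were among the 32285 genes counted. They were followed across the states of LSK cells of the bone marrow (Lin-, Sca-1+ and cKit+), a gate in which stem cells and multipotent progenitors are found.

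The cells came from mouse bone marrow of the genotypes 129S1/C57Bl/6, B4-/- (3 libraries labelled B4galt1 KO, replicates 1 to 3) and 129S1/C57Bl/6 (4 libraries labelled WT, replicates 1 to 4). The series names the first group full knockouts of B4galt1, a galactosyltransferase, and its title links glycosylation to whether stem cells take a megakaryocytic path. Age, sex and treatment are not given in the labels, and nothing in them says whether each library is a separate animal, so p-values measure the spread between these libraries. Kept cells, defined as barcodes with at least 1000 UMIs (unique molecular identifiers, 1 per captured RNA molecule), at least 500 genes and at most 10% mitochondrial UMIs, numbered 1725 to 6855 per knockout-labelled and 1172 to 8862 per WT-labelled library, with a median of 8046 to 11083.5 UMIs.

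The labels were checked first on the targeted gene. B4galt1 stood at 53.2, 53.1 and 31.8 CPM (UMIs of the gene per 1000000 UMIs) in knockout-labelled replicates 1 to 3, and at 54.1, 60.8, 52.1 and 39.5 in WT-labelled replicates 1 to 4. Its RNA did not separate the groups, and the labels do not say which part of the gene is deleted, so each library goes by its label alone. The libraries also split into 2 sets of cell barcodes. Knockout-labelled replicate 3 and WT-labelled replicate 4 (list B) shared 88 barcodes, 68 of them kept in both, against at most 7 in any other pair. Of their barcodes 98.3% and 96.2% were kept, against 32.4% to 49.9% in the other 5 libraries (list A), and ribosomal protein genes took 31.7% and 31.8% of their UMIs, against 14.8% to 22.3%. Results are therefore given over all libraries and within the lists, although list B holds 1 library per label.

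In the GENCODE annotation of the mouse build GRCm38, Prtn3 (chromosome 10, 79874476 to 79883174, plus strand) and Elane (chromosome 10, 79886247 to 79888215, plus strand) are neighbours, 3073 bases apart. Mpo lies on chromosome 11 (87793581 to 87804413, plus strand), Ctsg on chromosome 14 (56099881 to 56102574, minus strand) and Ms4a3 on chromosome 19 (11629496 to 11640851, minus strand). Slpi (164354070 to 164389095, minus strand) and Cst7 (150570415 to 150578944, plus strand) lie on chromosome 2, and Hp on chromosome 8 (109575128 to 109579172, minus strand). Prtn3 overlaps Plppr3, a gene on the opposite strand, and Mpo overlaps the antisense gene Gm11505. Whether the counting used strand is not given in the sources used here, and without strand such pairs could not be told apart.

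RefSeq promoter sequences (GRCm38.p6, 250 bases before to 50 after the start) were matched for 7 of the 8 genes, all but Hp. The start meant here is that of RefSeq, which can differ from the GENCODE gene bounds above. Of the stretches printed below, that of Prtn3 lies wholly inside its GENCODE gene, and those of Mpo and Elane lie partly inside theirs. The 4 genes with the highest levels, Mpo, Elane, Prtn3 and Ctsg, each hold the letters GAGGAAG, a core recognised by the myeloid factor PU.1, on either strand, and they are shown because most of the results below turn on them. The 250 bases before each start follow 5′ to 3′ on the gene's strand, with GAGGAAG in capitals (chr11:87793534-87793783, chr10:79886062-79886311, chr10:79879417-79879666 and chr14:56102575-56102824).
Mpo: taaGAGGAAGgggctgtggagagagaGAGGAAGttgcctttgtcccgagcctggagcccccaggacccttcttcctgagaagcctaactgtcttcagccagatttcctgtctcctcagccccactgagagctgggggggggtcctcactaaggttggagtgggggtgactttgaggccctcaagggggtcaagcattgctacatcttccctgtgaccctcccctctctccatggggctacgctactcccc
Elane: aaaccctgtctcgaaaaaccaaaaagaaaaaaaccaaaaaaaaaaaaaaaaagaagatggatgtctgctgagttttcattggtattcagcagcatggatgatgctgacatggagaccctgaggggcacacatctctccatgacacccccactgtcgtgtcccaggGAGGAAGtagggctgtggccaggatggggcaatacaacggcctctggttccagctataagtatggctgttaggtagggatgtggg
Prtn3: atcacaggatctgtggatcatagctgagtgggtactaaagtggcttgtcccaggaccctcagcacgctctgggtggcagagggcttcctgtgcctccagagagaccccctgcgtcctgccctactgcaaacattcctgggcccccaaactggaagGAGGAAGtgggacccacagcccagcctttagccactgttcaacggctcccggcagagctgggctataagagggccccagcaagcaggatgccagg
Ctsg: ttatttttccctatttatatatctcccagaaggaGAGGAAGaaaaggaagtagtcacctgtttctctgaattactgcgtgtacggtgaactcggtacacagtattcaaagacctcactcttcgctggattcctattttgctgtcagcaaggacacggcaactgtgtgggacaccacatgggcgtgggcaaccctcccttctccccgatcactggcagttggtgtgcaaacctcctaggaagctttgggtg

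The match begins 85 bases before the start in Elane and 95 bases before it in Prtn3, 216 before it in Ctsg, and 247 and 224 before it in Mpo, on the gene's own strand in each. The letters occur in 13.6% of the 32851 RefSeq promoters of this length. The C/EBP-type letters TTGCNNAA are in the other 3 promoters, those of Cst7, Ms4a3 and Slpi, and in 10.8% of all promoters. The RUNX-type letters TGTGGT are in the promoters of Cst7 and Ctsg (16.8% of all) and the MYB-type letters AACNG in 5 of the 7 (80.3% of all). Each motif was searched by itself on both strands, so matches of different motifs may overlap, and a match is not a measured site.

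Kept cells were grouped into 20 clusters by their expression with the 8 genes left out, so that the genes could be read across states that they did not define. Only 6 clusters took a cell type name from marker genes, and only 6 clusters held at least 20 cells in every library. All levels below are UMI counts, 1 tag per molecule and not divided by gene length. Levels across clusters are plain CPM, averaged over libraries with at least 20 cells in the cluster.

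Mpo and the 3 proteases were highest in 2 small clusters. Cluster 15, granulocyte-monocyte-like with Alas1, Dmkn and Prss57 among its leading genes, held at least 20 cells in knockout-labelled replicates 1 and 2 alone. There Mpo reached 8010 ± 260 CPM (SD, n = 2), Prtn3 6240 ± 2503, Ctsg 5582 ± 2952 and Elane 5420 ± 1552. Cluster 14, unnamed and led by Clec12a, Cldn15 and Tifab, held at least 20 cells in both list B libraries alone. Its Mpo was 5041 CPM in knockout-labelled replicate 3 and 6828 in WT-labelled replicate 4, and its Elane was 2786 and 9119. Neither cluster thus had enough cells to compare the labels within list A.

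Outside those clusters the genes parted. In cluster 8, unnamed and led by the dendritic genes Siglech and Ly6d with F13a1 and Irf8, Mpo was 2618 ± 1295 CPM (SD, n = 6 libraries) and Elane 743 ± 630. In cluster 4, led by DNA replication genes and filled in all 7 libraries, Mpo was 1173 CPM, Prtn3 507 and Ctsg 482, while Elane was 53.2 and Ms4a3 42.9. In the HSC-like cluster 3 (leading genes Hlf, Trpc6 and Procr) Mpo was 70.2 ± 31.2 CPM (SD, n = 6), Ctsg 7.63 and Elane 6.02, yet Prtn3 was 219 ± 131. In the megakaryocyte-like cluster 13 Prtn3 was 390 CPM in the 27 cells of knockout-labelled replicate 1, and 73.7 and 72.2 in the 341 and 198 cells of the list B libraries.

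**Figure D1:**
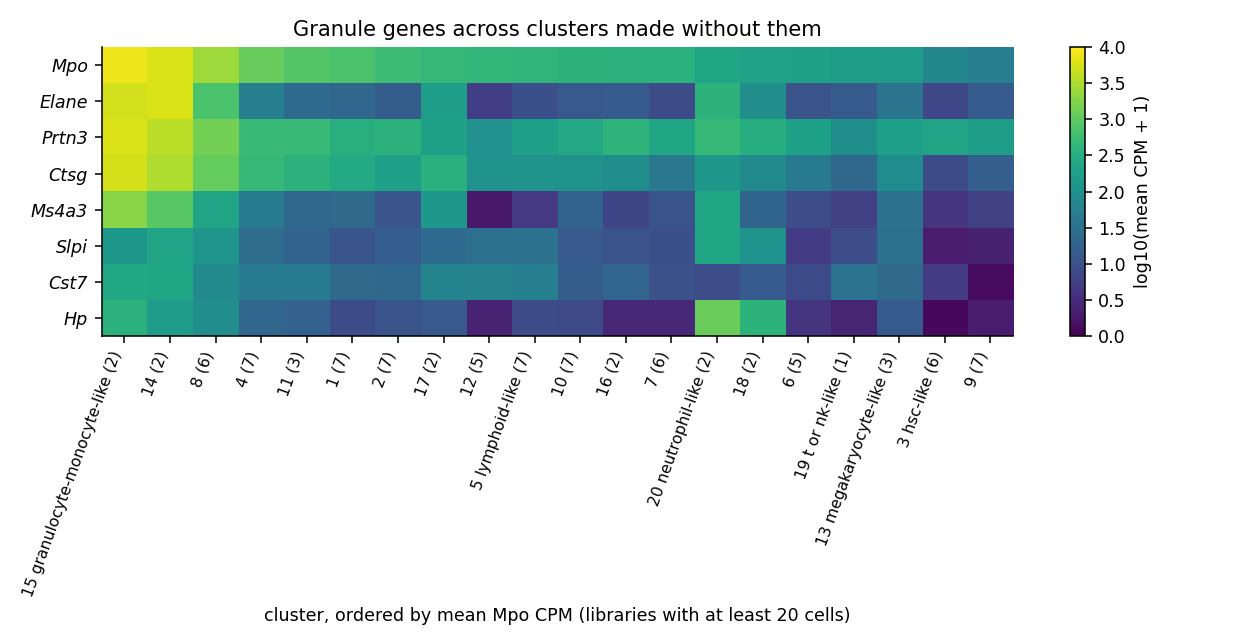
Mean level of the 8 genes (rows) in 20 clusters made without them (columns, ordered by Mpo; number of libraries with at least 20 cells in brackets), as log10 of mean CPM plus 1. Mpo, Elane, Prtn3 and Ctsg peak in clusters 15 and 14, Hp peaks at 1237 CPM in the neutrophil-like cluster 20, and Prtn3 remains at 219 CPM in the HSC-like cluster 3.

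The inhibitors and Hp followed other clusters. Cst7 reached 249 ± 113 CPM (SD, n = 2) in cluster 15 and 227 ± 91.4 (SD, n = 2) in cluster 14, and it was 52.1 ± 22.1 (SD, n = 7) in the lymphoid-like cluster 5, where Elane was 8.42. Slpi was 225 ± 10.5 CPM (SD, n = 2) in the neutrophil-like cluster 20, 214 ± 57.2 (SD, n = 2) in cluster 14 and 135 ± 23.4 (SD, n = 2) in cluster 15. Over libraries clusters 14 and 20 overlapped, and both lay above cluster 15. Hp stood at 1237 ± 366 CPM (SD, n = 2) in cluster 20, at 387 ± 456 (SD, n = 2) in cluster 18 (led by MHC class II genes) and at 365 ± 167 (SD, n = 2) in cluster 15. The neutrophil-like cells, led by Ngp, Ltf and Camp, which are secondary granule genes, kept Elane at 380 CPM and Prtn3 at 478 while Cst7 was 7.92. Of these 92 cells 36 came from knockout-labelled replicate 1 and 21 from WT-labelled replicate 3, the libraries with at least 20.

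Over the 20 clusters the genes fell into groups by likeness, given as Pearson's r of log2(CPM + 1), a description over clusters that share libraries. Elane was most like Ms4a3 among the members (r = 0.96), Mpo most like Ctsg (0.96) and Slpi most like Hp (0.90), while Cst7 and Hp were the least alike (0.41). Among 9779 other genes, Mpo was most like Prss57 (0.91), Mettl6 (0.90) and Chdh (0.88), and Ctsg most like Prss57 (0.85), Rab44 (0.84) and Chdh (0.84). Prss57 encodes another serine protease of azurophil granules. Elane was most like Svip (0.92), Cldn15 (0.91) and Alas1 (0.91), Prtn3 most like Alas1 (0.93), Svip (0.89) and Dmkn (0.88), and Ms4a3 most like Chst13 (0.91), Svip (0.89) and Alas1 (0.88). Alas1 encodes the first enzyme of haem synthesis, and haem is the cofactor of myeloperoxidase. Cst7 was most like Plac8 (0.92), Cox5a (0.90) and Ak6 (0.89), Slpi most like Anxa3 (0.92), Card9 (0.91) and Tspo (0.89), and Hp most like Igsf6 (0.96), Sgms2 (0.96) and C3 (0.94).

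Within single cells Elane, Ctsg, Mpo and Prtn3 formed a partly nested series, while the 8 genes together did not. Each cell was thinned to 3000 UMIs, which left out 45 to 169 shallower cells per library. Among cells with an Elane UMI, the median over libraries of the share that also had a Prtn3 UMI was 91.6% (68.1% to 96.4%), and for Mpo it was 91.0% (59.1% to 97.8%). In the other direction only 7.2% of cells with an Mpo UMI (2.25% to 39.5%) and 8.0% of cells with a Prtn3 UMI (3.8% to 39.7%) had one of Elane. Ctsg stood between them, with Mpo in 87.8% of its cells and Elane in 17.4%. Over all thinned cells of a library, Prtn3 was seen in 27.1% to 71.5%, Mpo in 39.7% to 71.3% and Elane in 1.10% to 31.0%. Part of the asymmetry follows from these unequal shares. At least 5 of the 8 genes were seen in 27.8%, 15.7% and 3.75% of the cells of knockout-labelled replicates 1 to 3, and in 3.16%, 1.86%, 1.03% and 1.70% of those of WT-labelled replicates 1 to 4.

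To order the genes by onset, cells were placed on an axis from stem to granulocyte-monocyte expression. It was the mean of 12 granulocyte-monocyte genes minus that of 12 stem genes, with each of these centred within its library. None of the 8 members was among them. Each gene's mean per cell was read in bins of the axis against its own top bin. In the lowest 25% of the axis Prtn3 was at a median of 7.7% of its level in the top 5% of cells (4.0% to 9.3% over the 7 libraries). The other 7 genes had medians of 1.8% (Mpo), 1.3% (Cst7), 0.98% (Slpi), 0.52% (Ctsg), 0.32% (Ms4a3), 0.15% (Elane) and 0.14% (Hp). The lowest value of Prtn3 in any library was above the highest value of each of the other genes, which was 3.7% for Cst7.

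Between the 50th and 80th percentiles the order was another. Cst7 led with a median of 23.4% of its top level (12.6% to 74.0%), before Mpo with 14.1% (8.6% to 37.7%), Prtn3 with 10.3% (6.1% to 19.6%), Slpi with 8.2% and Ctsg with 6.6%. Ms4a3 was at 2.2%, Hp at 0.78% and Elane at 0.22%. Cst7, Mpo, Prtn3, Slpi and Ctsg overlapped over libraries, while Elane was at most 3.3% in each library. Prtn3 was at 6.14%, 6.39%, 10.3% and 7.60% here in WT-labelled replicates 1 to 4, after 5.16%, 5.94%, 9.34% and 9.26% in the lowest 25%. In knockout-labelled replicates 1 to 3 it was at 14.0%, 19.6% and 13.1%, after 3.96%, 7.72% and 9.17%. Its level at the stem end is thus not by itself the start of a rise. The highest shares of Cst7, 42.9% and 74.0%, were those of WT-labelled replicates 2 and 3. Its top levels there were low, 0.156 and 0.102 UMIs per thinned cell over 45 and 49 cells.

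A level of 50% of the top bin was reached and held from the 97.5th percentile on for Elane, in 7 of 7 libraries. The top bin starts there, so this is the latest onset the measure can give, and no gene can come after Elane. For Mpo this onset came at 90 to 97.5 (mean 93.6 ± 3.49, SD, n = 7), for Prtn3 at 96.1 ± 1.34, for Ctsg and Hp at 96.4 ± 1.34 and for Ms4a3 at 97.1 ± 0.945. Slpi (90.4 ± 9.29) and Cst7 (88.2 ± 12.1) varied most, from 65 to 97.5 for Cst7. The gap between Elane and Mpo was 3.93 ± 3.49 percentiles (SD, n = 7), with Elane later in 5 libraries and level in 2. At 25% of the top level it was 15.7 ± 12.6 percentiles, with Elane later in 7 of 7. In WT-labelled replicate 2 the 95 to 97.5 bin held 16 cells and was not read.

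**Figure D2:**
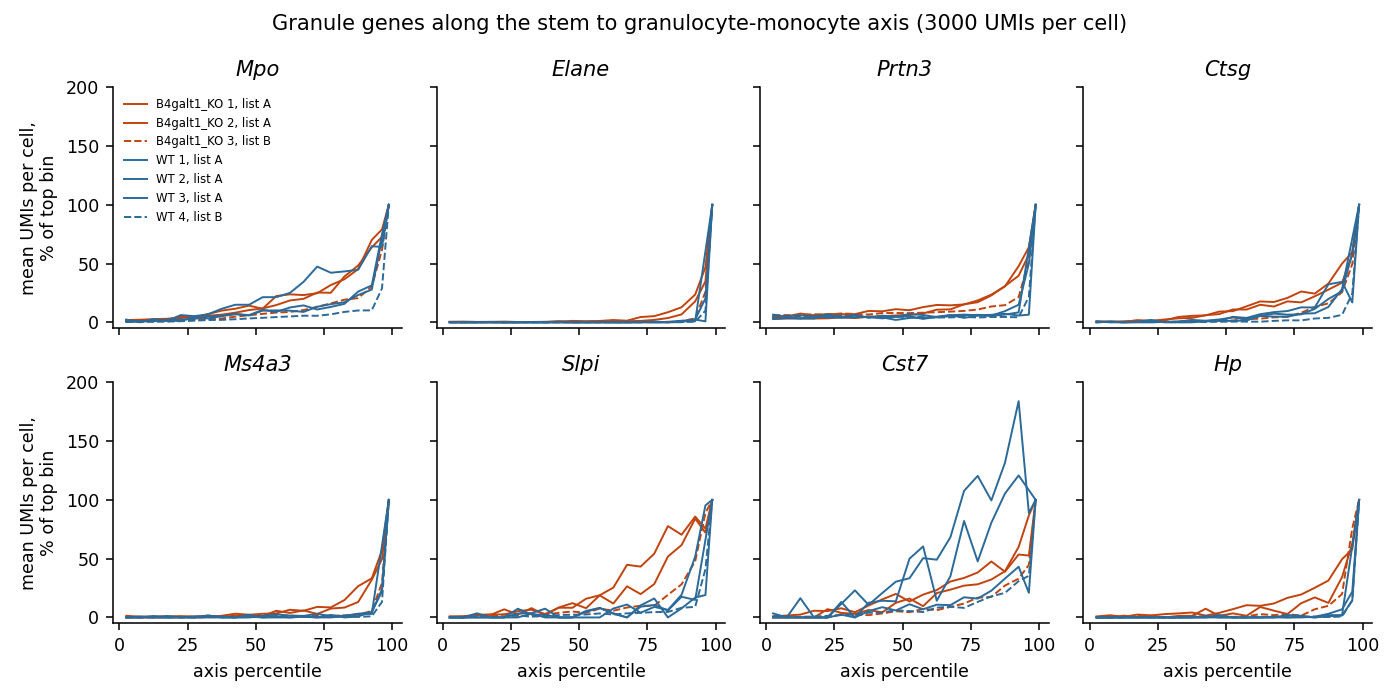
Mean UMIs per cell of each gene along the axis (x, percentile of cells), as a percentage of the library's top bin (y), 1 line per library, red for knockout-labelled, blue for WT-labelled, dashed for barcode list B. Elane reaches 50% in the last bin in all 7 libraries, Mpo in an earlier bin in 5 of them, and Cst7 passes its top-bin level in some WT-labelled list A libraries.

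Prtn3 was the member with the highest level at the stem end. In the lowest 25% of the axis it stood at 270, 263 and 334 CPM in knockout-labelled replicates 1 to 3, and at 103, 97.2, 99.1 and 257 in WT-labelled replicates 1 to 4. There were 125, 168 and 437 Prtn3 UMIs per 100 Mpo UMIs in the knockout-labelled libraries and 165, 220, 269 and 480 in the WT-labelled ones, so Prtn3 outnumbered Mpo in 7 of 7. In Elane-high cells, those with at least 10 Elane UMIs per 10000, the same ratio was 49.0 to 92.6, below 100 in 7 of 7, and in the lymphoid-like cluster it was 17.5 to 85.4. The 2 highest stem-end ratios were those of the list B libraries.

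Free RNA in droplets can give UMIs to cells that do not express a gene, so shares of Prtn3 and Mpo were read beside cells that should lack both. The T or NK-like cluster 19 held 86 cells in WT-labelled replicate 4 and under 20 in each other library. After thinning, 22.2% of its cells had a Prtn3 UMI (Wilson 95% interval 13.2% to 34.9%, counting error only) and 27.8% one of Mpo (17.6% to 40.9%), over 54 cells with a median depth before thinning of 6101 UMIs. In the HSC-like cells of that library (1317 thinned, median 6126 UMIs) the shares were 55.4% for Prtn3 (52.7% to 58.1%) and 13.9% for Mpo (12.1% to 15.9%). Prtn3 was thus seen in more HSC-like than T or NK-like cells and Mpo in fewer, so the T or NK-like cells give no common background level for Mpo. In unthinned sums Prtn3 was 291 CPM in those HSC-like cells against 98.2 in the T or NK-like cells, and Mpo was 64.0 against 168. Cst7 was 2.69 against 32.7, so the T or NK-like cells give no background level for it either. In the lymphoid-like cells of the same library Mpo was 384 CPM, seen in 52.3% of 1045 thinned cells, and Cst7 57.2, while Elane was 11.5 and close to its 12.5 in the T or NK-like cells.

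A further reading took Elane as a tracer: its CPM in a set of cells was multiplied by each gene's ratio to Elane in the Elane-high cells of the same library. That takes free RNA to have the make-up of Elane-high cells. Barcodes that failed the cell filter, which are not free RNA alone, held more Mpo, Prtn3 and Ctsg per Elane in every library. In knockout-labelled replicate 1 they held 2737 CPM of Mpo and 345 of Elane, against 6700 and 4583 in Elane-high cells. With their make-up the amounts would be larger wherever Elane was seen. In the lowest 25% of the axis the product came to 0% to 18.8% of the Prtn3 seen, 0% to 25.3% of the Mpo and 0% to 138% of the Ctsg. In the HSC-like cells of WT-labelled replicate 4 it amounted to 14.3% of the Mpo and 2.11% of the Prtn3. After its removal Prtn3 remained at 219, 255 and 328 CPM in the knockout-labelled libraries and at 99.7, 95.001, 99.1 and 251 in the WT-labelled ones. Plppr3, which overlaps Prtn3, was at 67.3 to 79.4 and 48.3 to 69.3 CPM in the same cells, close to its 35.2 to 121 CPM in Elane-high cells.

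**Figure D3:**
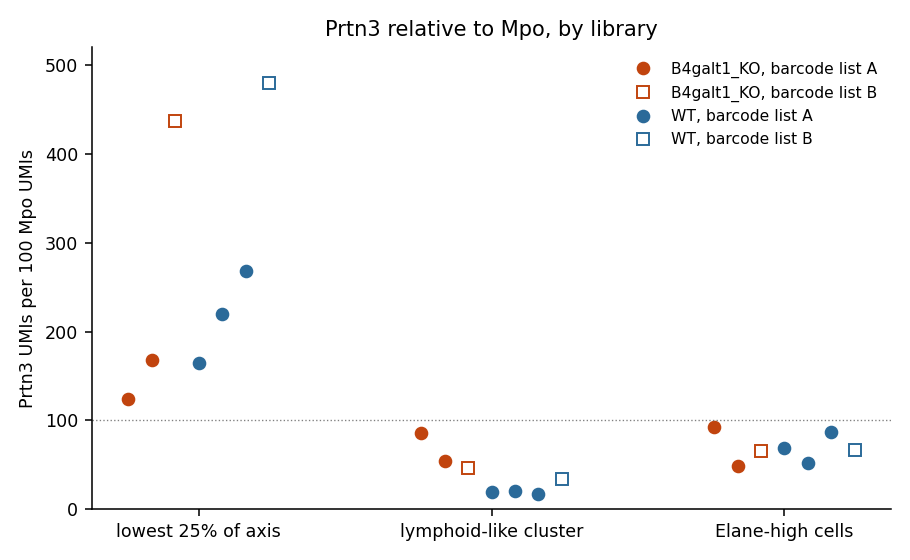
Prtn3 UMIs per 100 Mpo UMIs (y) in the lowest 25% of the axis, the lymphoid-like cluster and Elane-high cells (x), 1 point per library, coloured by label, open squares for barcode list B. All 7 points lie above 100 at the stem end (125 to 480) and below it in the other 2 sets.

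Elane-high cells were 16.7%, 6.84% and 1.95% of kept cells in knockout-labelled replicates 1 to 3 and 2.09%, 1.19%, 0.733% and 1.46% in WT-labelled replicates 1 to 4. Wilson 95% intervals, which cover counting error only, were 15.4% to 18.0%, 5.74% to 8.13% and 1.65% to 2.31%, against 1.43% to 3.04%, 0.713% to 1.99%, 0.410% to 1.31% and 1.23% to 1.73%. Knockout-labelled replicates 1 and 2 were above every WT-labelled library, and replicate 3 was below WT-labelled replicate 1. The difference of the means, 7.12 percentage points, had an exact permutation p of 0.0571 (two-sided, 35 splits, smallest possible p 0.0286), with 8.49 ± 7.49 against 1.37 ± 0.566 (SD, n = 3 and 4). Within list A it was 10.4 points (exact permutation p 0.100, with 10 splits and no smaller p to be had), within list B 0.499 points, and without knockout-labelled replicate 1 it was 3.03 points (exact permutation p 0.133).

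Summed over all kept cells, every member was higher on average under the knockout label. CPM from here on are scaled by TMM library factors. Mpo stood at 3292, 2338 and 1229 CPM in knockout-labelled replicates 1 to 3 and at 857, 647, 347 and 659 in WT-labelled replicates 1 to 4. Every knockout-labelled library lay above every WT-labelled one for 6 of the 8 genes, as did 2.68% of the 14608 genes tested. The exceptions were Elane, where WT-labelled replicate 4 (371 CPM) was above knockout-labelled replicates 2 and 3 (366 and 284), and Hp. The test of edgeR over all 7 libraries called 0 of the 8, as it called 0 of all genes (0%), with member adjusted p from 0.675 to 0.968. At an unadjusted p under 0.05 it had 8 of the 8 and 697 of all genes. The median log2 fold change of the members was 2.28, beside 0.019 over all genes. With the barcode list as a covariate, edgeR called 2 members and 1.11% of all genes, 0.472% being higher under the knockout label. Mpo was called at a log2 fold change of 1.82 ± 0.34 (SE) with an adjusted p of 0.0414, Slpi at 1.70 ± 0.27 with an adjusted p of 0.0330. DESeq2 without a covariate called 5 members and 92 genes (0.367%). Both covariate calls were lost without knockout-labelled replicate 1 or 2 and without WT-labelled replicate 1, 2 or 3, with adjusted p up to 0.174 for Mpo and 0.154 for Slpi.

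The Elane-high cells were then left out, to ask whether the other 7 genes differed between labels in the cells that remained. In those cells Mpo stood at 1264, 1774 and 965 CPM in knockout-labelled replicates 1 to 3 and at 543, 473, 313 and 437 in WT-labelled replicates 1 to 4. Prtn3 stood at 907, 810.0 and 631 CPM against 203, 147, 118 and 268. Ctsg, which like elastase is a chymotrypsin-family protease, stood at 812, 556 and 344 CPM against 193, 109, 75.6 and 89.5. For each of these genes the lowest knockout-labelled library was above the highest WT-labelled one.

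Slpi stood at 49.8, 61.0 and 34.0 CPM in the knockout-labelled libraries and at 17.9, 14.1, 10.97 and 13.5 in the WT-labelled ones. Ms4a3 stood at 131, 64.7 and 23.7 CPM against 7.08, 8.54, 4.80 and 7.90. Cst7 stood at 70.0, 30.05 and 39.1 CPM against 30.3, 19.6, 20.5 and 29.7. Hp stood at 92.9, 36.9 and 8.42 CPM against 18.1, 10.00, 12.2 and 1.64. Slpi and Ms4a3 did not overlap between the groups, and Cst7 and Hp did. Elane, which chose the cells and is not tested, was 123, 90.1 and 30.4 CPM against 12.6, 6.86, 1.91 and 15.4.

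**Figure D4:**
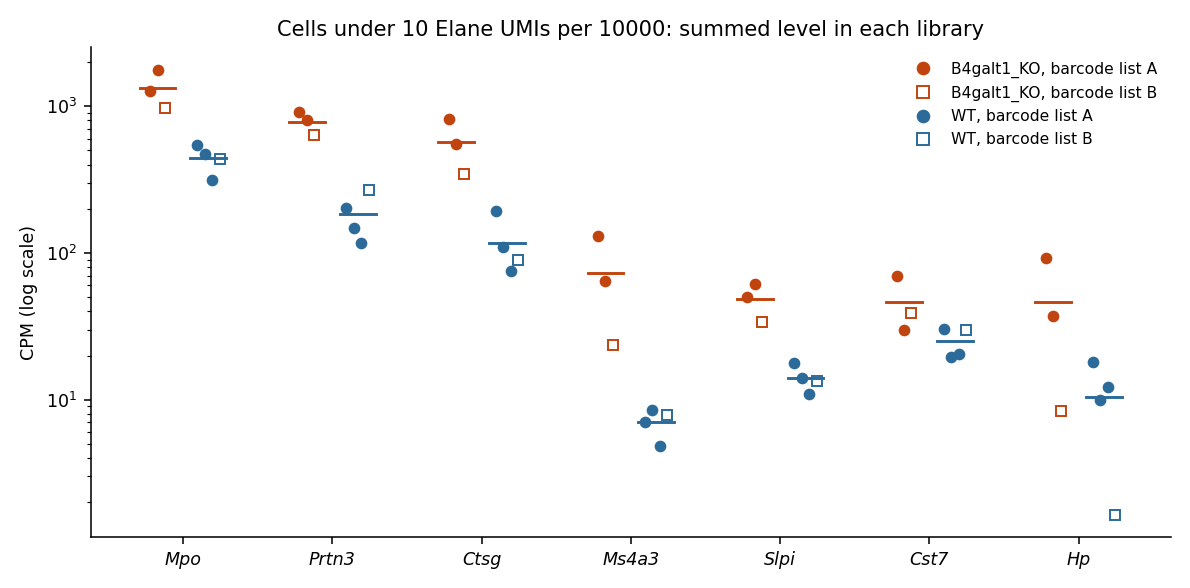
Summed level of 7 genes in cells under 10 Elane UMIs per 10000 (y, CPM on a log scale), 1 point per library (filled for barcode list A, open for list B), red for knockout-labelled, blue for WT-labelled, with bars at the group means. The groups do not overlap for Mpo, Prtn3, Ctsg, Ms4a3 and Slpi, and overlap for Cst7 and Hp.

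Of the 7 genes, 5 had every knockout-labelled library above every WT-labelled one, as did 2.02% of the 14673 genes tested. The edgeR test without a covariate again called 0 of 7, and 0% of all genes, with member adjusted p from 0.419 to 1.00 (7 of the 7 and 488 of all genes at an unadjusted p under 0.05). DESeq2 called 5 members and 69 genes (0.277%). With the barcode list as a covariate, edgeR called 5 of 7 against 1.37% of all genes in either direction and 0.661% higher. These were Slpi (log2 fold change 1.77, SE 0.18, adjusted p 0.0026), Prtn3 (2.11, SE 0.25, adjusted p 0.0050), Mpo (1.59, SE 0.22, adjusted p 0.0078), Ctsg (2.30, SE 0.30, adjusted p 0.0119) and Hp (2.30, SE 0.34, adjusted p 0.0292). Ms4a3 (3.18, SE 0.58, adjusted p 0.0891) and Cst7 (0.89, SE 0.31, adjusted p 0.247) were not called.

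The covariate calls of Mpo, Prtn3 and Slpi held with each of the 7 libraries left out in turn, with adjusted p up to 0.0290, 0.0371 and 0.0134. That of Ctsg was lost without knockout-labelled replicate 1 or WT-labelled replicate 2 (up to 0.0958). That of Hp was lost without knockout-labelled replicate 3 or WT-labelled replicate 2, 3 or 4 (up to 0.152). The ratio of the labels within list A was 1.78 on the log2 scale for Mpo, 2.45 for Prtn3, 2.43 for Ctsg and 1.88 for Slpi (of mean CPM + 1). Within list B, with 1 library per label, it was 1.14 for Mpo, 1.23 for Prtn3, 1.93 for Ctsg and 1.27 for Slpi. Among cells with no Elane UMI at all, the covariate fit of edgeR called 3 members and 69 of 14522 genes (0.475%). That limit kept 52.4%, 75.4% and 86.0% of knockout-labelled cells by library, against 94.2%, 96.2%, 98% and 87.8%. In barcodes that failed the cell filter, Mpo stood at 2737, 933 and 2358.5 plain CPM in knockout-labelled replicates 1 to 3. It was 430, 264, 208 and 1214 in WT-labelled replicates 1 to 4. The part of free RNA in these label differences, and in those of the ranges and clusters below, was not tested.

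Markers of other cell types were summed in the cells outside the Elane-high ones. The 10 granulocyte-monocyte markers summed to 368 to 445 CPM in the knockout-labelled libraries and 263 to 315 in the WT-labelled ones, and the 7 lymphoid markers to 515 to 635 against 787 to 1200. The 7 monocyte markers summed to 261 to 1197 against 128 to 354, the 7 dendritic markers to 309 to 444 against 469 to 649.7, and the 7 neutrophil markers to 11.6 to 4028 against 69.8 to 3460. The first of these lists was higher in every knockout-labelled library, the lymphoid and dendritic lists were lower, and the monocyte and neutrophil lists overlapped. All markers of these 5 lists were detected. The part of these cells in the differences was not tested.

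Members were therefore also compared among cells of like position, in 4 ranges of the axis. Since the axis genes were centred within each library, a position is relative to the library's own mean. It is not a common scale of maturity across libraries. A like position did not mean the same clusters. In the 0 to 50 range cluster 6, unnamed and with Ptgs2, Thbs1 and Atf3 among its leading genes, held 68.1%, 48.5% and 0.123% of the cells of knockout-labelled replicates 1 to 3, and 9.74%, 9.11%, 8.40% and 0% of those of WT-labelled replicates 1 to 4. The HSC-like cluster held 0.838%, 2.74% and 33.6% against 20.1%, 20.8%, 21.4% and 30.5%. Hlf, a stem cell transcription factor, stood there at 283, 417 and 327 CPM against 553, 783, 687 and 460. The other stem genes did not all follow it. The 8 HSC markers, Hlf among them, summed to 2647 to 3070 plain CPM against 2806 to 4265, so the groups overlapped. Of the 12 stem genes of the axis, 5 had a positive log2 fold change there without the covariate, and 0 were called with it. The part of this make-up in the differences was not tested. From the 0th to the 50th percentile Mpo stood at 437, 465 and 248 CPM in the knockout-labelled libraries and at 166, 153, 122 and 169 in the WT-labelled ones. Prtn3 stood there at 349, 338 and 414 CPM against 108, 98.9, 106 and 287, where WT-labelled replicate 4 is a list B library and lay nearest to the knockout-labelled ones. With the covariate, edgeR called both in this range, Mpo at a log2 fold change of 1.31 (adjusted p 0.0404) and Prtn3 at 1.37 (adjusted p 0.0313), against 0.224% of 13369 genes in either direction and 0.112% higher. Both calls were lost without WT-labelled replicate 1, 2 or 3 (adjusted p up to 0.189 and 0.188). Without it edgeR called 0 members and 0% of all genes (200 genes at an unadjusted p under 0.05), and DESeq2 called 2 members and 15 genes (0.0639%).

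In the 50 to 80 range Ctsg stood at 1315, 580 and 271 CPM in the knockout-labelled libraries and 142, 81.7, 81.2 and 69.2 in the WT-labelled ones. The covariate fit of edgeR called Mpo (log2 fold change 1.69, adjusted p 0.0070), Prtn3 (2.37, adjusted p 0.0142) and Ctsg (2.86, adjusted p 0.0188) there, against 1% of 12391 genes in either direction and 0.468% higher, and left Slpi at an adjusted p of 0.05002. In the 80 to 90 range it called 4, Slpi (2.17, adjusted p 0.0008), Mpo (1.89, adjusted p 0.0021), Prtn3 (2.96, adjusted p 0.0427) and Ctsg (2.44, adjusted p 0.0433), against 2.34% of 10959 genes in either direction and 1.2% higher. Of these 7 calls, Mpo in both ranges and Slpi in the 80 to 90 range held with each library left out in turn. Ctsg was lost in both ranges without WT-labelled replicate 2 or 3 and, in the 80 to 90 range, without knockout-labelled replicate 1. Prtn3 was lost in both without WT-labelled replicate 1, 2 or 3 and, in the 80 to 90 range, without knockout-labelled replicate 2. Adjusted p reached 0.121 and 0.0936 for Ctsg and 0.0926 and 0.107 for Prtn3. Without the covariate edgeR called 0 members in either range (535 and 699 genes at an unadjusted p under 0.05). DESeq2 called 7 members in each, beside 79 and 108 genes (0.345% and 0.515%).

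In the 90 to 100 range the groups came closer. Mpo stood at 7219, 5078 and 4581 CPM against 3334, 2473, 978 and 3396, and Elane at 5006, 1359 and 2281 against 1271, 575, 460 and 3953. The covariate fit of edgeR called 0 members there and 0% of 11287 genes (2062 at an unadjusted p under 0.05). Without the covariate edgeR also called 0 (567 genes at an unadjusted p under 0.05), and DESeq2 called 0 members and 28 genes (0.133%). The members' median log2 fold change, without the covariate, was 1.78, 2.65, 2.72 and 1.01 from the lowest to the highest range, beside 0.019, 0.016, 0.0100 and 0.025 over all genes. Whether the label difference itself changed between ranges was not tested. Every knockout-labelled library lay above every WT-labelled one for 6, 7, 7 and 3 of the 8 genes in the 4 ranges, beside 0.965%, 2.24%, 3.28% and 2.71% of genes.

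**Figure D5:**
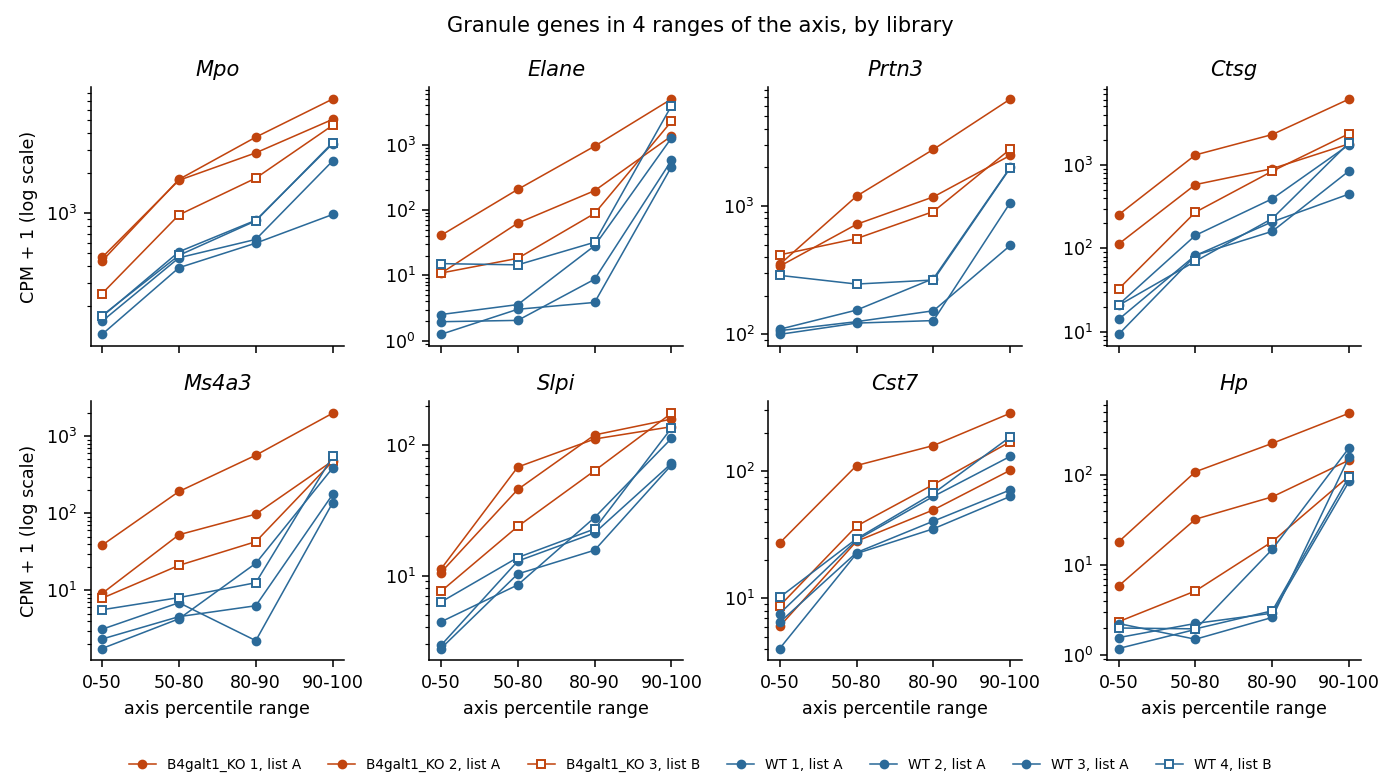
Level of each gene (y, CPM plus 1 on a log scale) in 4 ranges of the axis (x, percentile), 1 line per library, red for knockout-labelled, blue for WT-labelled, open squares for barcode list B. Red lines lie above the blue ones for Mpo in all 4 ranges, while WT replicate 4 reaches 3953 CPM of Elane in the top range, above 2 knockout-labelled libraries.

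Within clusters the same comparison could be made in the 6 that held at least 20 cells of every library. Knockout-labelled libraries were all above the WT-labelled ones in 6 of 6 clusters for Mpo and Ctsg, in 5 for Prtn3, Ms4a3 and Slpi, in 4 for Hp, in 2 for Elane and in 0 for Cst7. By cluster this held for 7, 6, 7, 6, 2 and 5 of the 8 genes in clusters 1, 2, 4, 5, 9 and 10, beside 1.52%, 1.66%, 1.85%, 1.46%, 1.02% and 1.55% of all genes with at least 10 UMIs there. In cluster 9 only 5 of the 8 genes reached that minimum. In the lymphoid-like cluster Prtn3 stood at 356, 280 and 299 CPM against 58.1, 65.5, 52.2 and 133, and Slpi at 51.9, 54.7 and 58.1 against 14.2, 10.3, 11.3 and 19.9. Cst7 there was 90.5, 18.7 and 62.2 CPM against 49.2, 37.9, 49.0 and 57.2, with the groups overlapping. These values are a description, since the clusters share libraries.

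Other granule and pathway genes were read from lists in the cells outside the Elane-high ones. Without the covariate edgeR called 0 genes of any list, so the genes named below as called with it were picked after their values were seen. With it, 2 of 14 tested genes of other azurophil contents were higher under the knockout label, Prss57 (46.5 ± 6.18 against 22.3 ± 6.02 CPM, SD, n = 3 and 4, adjusted p 0.0159) and Ctsz, which encodes cathepsin Z (100.03 ± 12.2 against 52.8 ± 21.9, adjusted p 0.0447). Lyz2 (lysozyme) and Npc2, among the most abundant of that list, had adjusted p of 0.935 and 0.204. Of 10 genes of sorting, chaperoning and processing 0 were called, among them Calr, calreticulin, a chaperone of myeloperoxidase (731 ± 152 against 470 ± 96.2 CPM, adjusted p 0.0619), Srgn (adjusted p 0.959) and Hsp90b1 (adjusted p 0.253). Of 5 tested protease inhibitors 0 were called, with adjusted p of 0.428 for Serpinb1a, an inhibitor of elastase, 0.0743 for Serpina3g and 0.428 for Cst3. Of 12 secondary and tertiary granule genes 0 were called, with adjusted p of 0.562 for Camp, 0.775 for S100a8 and 0.759 for S100a9.

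Of 10 myeloid transcription factors the covariate fit called 1, Irf8, a factor of monocytes and dendritic cells (170 ± 56.9 against 77.2 ± 24.3 CPM, edgeR adjusted p 0.0159). Runx1, Myb and Cbfb, the most abundant of the list, had adjusted p of 0.836, 0.711 and 0.587. Of the 12 granulocyte-monocyte genes of the axis 4 were higher, Igsf6, Csf2rb, Clec12a and Plac8 (edgeR adjusted p 0.0007, 0.0119, 0.0307 and 0.0370), and of the 12 stem genes 2 were lower, Hlf (170 ± 14.8 against 339 ± 66.9 CPM) and Fgd5 (edgeR adjusted p 0.0208 and 0.0370). The median log2 fold change of the secondary and tertiary granule list was -0.71 with the covariate, that of the other azurophil contents 0.25, and that of all genes 0.006.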

How the data were processed

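The authors deposited raw UMI counts per gene and barcode, made with Cell Ranger 7.0.0 as the file headers state. Per the submitters' processing notes the build was mm10 and Seurat 4.4.0 was used, and per the labels' protocols the kit was Single Cell 3′ v2, which the 2 barcode lists leave uncertain. The 8 genes, the other gene lists and the tests were chosen with earlier results of these data known, and so was the model that takes the barcode list into account. Its values are printed beside but support nothing by themselves.

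Doublets remain: Scrublet called 0 to 3 barcodes per library, and an alternative dropped 25 to 653 cells per library with the highest scores. Clusters were made with scanpy 1.11.5 and leidenalg 0.10.2 (counts scaled to 10000, log, 2000 variable genes, centred within libraries, 30 components, 15 neighbours, resolution 1), leaving out 225 genes: the members, cell cycle, mitochondrial, ribosomal and sex-linked genes, B4galt1 and Muc13. A name needed 3 markers and 40% of a list raised, with fewer than 2 markers of another class among the top 10 genes, a limit added after the clusters had been seen. Raw counts were summed per library and compared with the quasi-likelihood test of edgeR 4.0.16 (TMM, filterByExpr, Benjamini-Hochberg, two-sided, threshold 0.05), which was tested on simulated data. Shares were compared by exact permutation. The naming rule took the 8 members, genes called without a covariate and the 3 most abundant of each other list (not printed for the axis genes, and 1 other gene is not reported here), and the 3 genes most like each member. Total UMIs per library ranged from 14970791 to 89747946.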

Additional observations from a re-analysis of the deposited data

Results flagged for a closer look

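Among the 4 WT-labelled libraries, 5 of 49 sets of values had 1 library far from the others. The sets were the members' levels and the share of Elane-high cells. Chance alone flags about 1 in 20 independent sets. These sets share libraries and cells, so their count cannot be set against that rate. WT-labelled replicate 4 stood apart in the 0 to 50 range of the axis for Prtn3 (287 CPM, others 98.9 to 108) and Elane (14.1 CPM, others 0.25 to 1.51), and in the 50 to 80 range for Elane (13.5 CPM, others 1.04 to 2.57). It is the list B library among them. WT-labelled replicate 1 stood apart for Ctsg in the 50 to 80 range (142 CPM, others 69.2 to 81.7) and for Hp in the 80 to 90 range (14.0 CPM, others 1.63 to 2.11).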

How the results depend on the processing

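Of the members' fold changes under other settings 812 kept direction and side of the threshold, 195 passed it and 3 changed sign: Cst7 in the 0 to 50 range without knockout-labelled replicate 1, with the covariate (-0.14), and Hp in the 90 to 100 range without that library (-0.0050 with the covariate; without it, leaving out 1 library gave -0.15 to 1.23). Members called, 0 of 8 over all kept cells, became 2 with the barcode list as a covariate, 3 in list A alone and 5 with DESeq2. Outside Elane-high cells 0 of 7 became 5, 5 and 5, and 3 with the covariate in cells without an Elane UMI. Over the 4 ranges, 0 of 32 became 9, 17 and 16, and 2 with no gene filter. Over all genes the same fits called, from the lowest range to the highest, 30, 124, 256 and 0, then 48, 373, 889 and 153, then 15, 79, 108 and 28, and 0, 0, 3 and 0. Genes called, 0 in both sets, became 162, 362 and 92 over all kept cells, and 201, 215 and 69 outside Elane-high cells (69 with the covariate and no Elane UMI). Leaving out 1 library gave 0 to 11 calls over the ranges, the 11 without knockout-labelled replicate 3 (0, 26, 131 and 19 genes). With the covariate it gave 0 to 3 members over all kept cells, 3 to 5 outside Elane-high cells and 3 to 16 over the ranges (10 without knockout-labelled replicate 1), and 16 to 349 genes over all kept cells (91, 145 and 349 without knockout-labelled replicates 1 to 3, 58, 63, 16 and 348 without WT-labelled replicates 1 to 4) and 108 to 230 outside Elane-high cells (135, 230, 223, 126, 116, 108 and 216). The cause was not tested.

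Same-numbered libraries paired only in part: their deviations from the group means correlated at 0.69, 0.89 and -0.59. For replicates 1 and 2 these were the highest values of the knockout-labelled library with any WT-labelled one. Knockout-labelled replicate 3 correlated instead with WT-labelled replicate 4 (0.93), the other list B library. The fit with the replicate block called 0 members and 1 gene over all kept cells, 0 members and 3 genes outside Elane-high cells, and 15 members over the ranges (4, 25, 93 and 46 genes).

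With a limit of 3 Elane UMIs per 10000, the Elane-high difference was 11.2 points (exact permutation p 0.0286). With 30 it was 3.41 points (exact permutation p 0.0571), and knockout-labelled replicate 3 (1.17%) was below WT-labelled replicate 4 (1.21%). Leaving out 1 library gave 3.03 to 10.4 points, the lowest without knockout-labelled replicate 1. The gap between Elane and Mpo was 15.7 percentiles at 25% of the top bin. Depth limits Elane, Ctsg, Ms4a3, Slpi and Hp at the stem end, where some libraries held no UMI of them in HSC-like cells.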
